A study of Mus musculus with 90 samples.

Results

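The genes described here are 10 mouse genes linked to the mesenchymal state and to stemness: *Snai1*, *Snai2*, *Zeb1*, *Zeb2*, *Twist1*, *Prrx1*, *Sox4*, *Hmga2*, *Vim* and *Cdh2*. They were taken by name, with no threshold on a measured value but with earlier results of these data known, and make up 10 of the 53697 genes of the deposited count table. Of the 10, 7 encode transcription factors that bind specific sites. *Hmga2* encodes an architectural chromatin protein, while *Vim* and *Cdh2* encode the structural products vimentin and N-cadherin, so the set is wider than transcription factors alone. *Hmga2* and *Sox4* also belong to the chronic-response signature that the study chose on these samples, and their direction here is therefore not independent evidence.

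Gene expression was measured by 3′ digital gene expression sequencing in 2 established mouse tumour lines, the melanoma line YUMM2.1 and the colon carcinoma line CT26, with 45 libraries per line in 15 groups of 3. Cultures at week 0 received bovine serum albumin (BSA, the control), or interferon gamma (IFNγ) at 50 IU/mL for 2 h or 24 h, and these last 2 groups are called naive cells. At weeks 1, 2 and 3 there were BSA control cultures, cultures kept in 50 IU/mL IFNγ throughout without rechallenge (continuous IFNγ), and continuously treated cultures given fresh IFNγ for 2 h or 24 h (rechallenged cells). Each line is a single tumour cell population in culture, without host cells. Chronically treated cultures given fresh medium alone, and long-term control cultures given their first IFNγ at weeks 1 to 3, were not analysed here, so the handling at rechallenge and the cytokine itself cannot be told apart, nor can time in culture and time in IFNγ in the comparisons with naive cells. The labels describe triplicate experiments and the study calls its replicates independent, without saying at which step of the time course these were separated. Unless said otherwise, the p-values measure the spread between these samples.

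The YUMM2.1 libraries held 274719 to 3161276 counts (median 1403265), and the CT26 libraries 295157 to 2205285 (median 1318011). In all, 3 libraries lay under 25% of the median of their line: replicate 3 of continuous IFNγ at 3 weeks in YUMM2.1, and replicate 3 of continuous IFNγ at 1 week and at 3 weeks in CT26. In the 12 control libraries of YUMM2.1, 6 of 10 melanocyte lineage genes had a count, led by *Sox10* with 589 counts and *Erbb3* with 509, while the pigment genes *Tyrp1* and *Mlana* were at 0, and the summed level of the list was 37.5 to 62.3 CPM (counts scaled to a common library size). The CT26 controls also held counts of 6 of the 10, at a summed level of 0.636 to 10.6 CPM, with *Sox10* at 0 and *Erbb3* at 2 counts, whereas *Mitf* (38 counts against 33 in YUMM2.1) and *Dct* (37 against 24) were low in both lines. In the CT26 controls, 4 of 10 colon epithelial genes had a count, led by *Krt20* with 908 and *Krt18* with 297, at a summed level of 56.9 to 74.5 CPM, while *Epcam*, *Cdh1* (E-cadherin) and *Vil1* (villin) were at 0. YUMM2.1 had counts of 4 of these 10 too, at a summed level of 0 to 3.38 CPM. Of 6 immune cell genes, *Ptprc* had 4 counts and *Itgam* 1 in the YUMM2.1 controls, whereas CT26 held 803 counts of *Cd14* and 16 of *Ptprc*, with the other 4 at 0. Both lines responded to IFNγ: the interferon-induced GTPase gene *Gbp2* was higher after 24 h in naive cells by 6.09 on the log2 scale in YUMM2.1 and by 5.42 in CT26. *Irf1* (2.82 and 2.31) and *B2m* (1.24 and 0.92) were also higher in both lines, whereas *Cd274*, which encodes PD-L1, passed the test in CT26 (6.60) and not in YUMM2.1 (1.14, adjusted p = 0.797).

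Epithelial cells that undergo epithelial to mesenchymal transition (EMT) lose their junctions and gain motility. The zinc finger repressors SNAI1, SNAI2, ZEB1 and ZEB2 and the basic helix-loop-helix factor TWIST1 bind E-box sites and repress epithelial genes such as *Cdh1*, and the homeobox factor PRRX1 drives a related programme. In melanoma these factors also mark states of the neural crest lineage, with ZEB2 and SNAI2 typical of differentiated and ZEB1 and TWIST1 of undifferentiated cells. SOX4, an HMG-box factor, and HMGA2, which bends AT-rich DNA, are expressed in embryonic tissues and in many tumours, and vimentin and N-cadherin are the usual readouts of the mesenchymal state.

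*Sox4* was the tested member with the largest called change in both lines: 2 h after rechallenge at 3 weeks its level was 3.496-fold that of naive cells 2 h after IFNγ in YUMM2.1 and 5.46-fold in CT26. *Hmga2* was higher in the same comparison, 1.99-fold in YUMM2.1 and 2.24-fold in CT26. At 24 h neither gene passed the test in either line. *Prrx1* was 1.86-fold higher in CT26 after 3 weeks of continuous IFNγ. The other tested members, *Snai2*, *Zeb1*, *Zeb2*, *Twist1*, *Vim* and *Cdh2*, passed the test in none of the comparisons planned within a line, and *Snai1* was removed by the filter on low counts. Without that filter *Vim* passed in several comparisons of each line, but its p-values in that fit are not read as a measure of the spread between libraries.

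The windows upstream of the transcription starts of *Sox4* and *Hmga2* are shown because these 2 genes moved together in both lines. Each is the 250 bases before the start, from the RefSeq annotation of GRCm38.p6, written 5′ to 3′ on the strand of the gene, and capitals mark the CCAAT box (CCAAT, or ATTGG on the other strand).
Sox4, chr13:28953700-28953949, minus strand: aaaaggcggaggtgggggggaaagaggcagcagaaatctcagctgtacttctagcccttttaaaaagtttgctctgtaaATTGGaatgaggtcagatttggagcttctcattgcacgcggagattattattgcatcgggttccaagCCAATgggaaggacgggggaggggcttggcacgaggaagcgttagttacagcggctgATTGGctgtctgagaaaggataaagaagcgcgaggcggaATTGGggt
Hmga2, chr10:120476470-120476719, minus strand: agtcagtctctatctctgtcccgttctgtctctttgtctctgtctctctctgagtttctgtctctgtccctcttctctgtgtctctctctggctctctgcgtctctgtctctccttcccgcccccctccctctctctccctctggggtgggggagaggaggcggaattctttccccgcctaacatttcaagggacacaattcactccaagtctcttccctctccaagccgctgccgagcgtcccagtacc
The *Sox4* window held 4 CCAAT boxes, a motif with at least 1 match in 33.8% of the 32807 promoter windows of this length in the annotation. Neither window held the interferon gamma-activated sequence, or GAS element (TTCNNNGAA, found in 7.02% of all windows), the interferon-stimulated response element core (GAAANNGAA, 7.12%), the AP-1 element (TGANTCA, 6.75%) or the E-box of the SNAI and ZEB factors (CAGGTG, 17.2%), with both strands searched. The *Hmga2* window, a run of C and T repeats over much of its length, held no CCAAT box either. RefSeq windows were matched for 7 of the 10 members, and only *Zeb2* among them held a GAS element (TTCTGTGAA, in 2 overlapping windows of its alternative starts) or an AP-1 element (2 matches upstream of another start). A match is a description of the letters and not evidence of binding, and a window without a match says nothing of sites elsewhere.

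The position of each member is given in GRCm38 with the GENCODE M21 annotation. *Sox4* is a gene of 1 exon at chr13:28948919-28953713, and *Hmga2* spans chr10:120361275-120476469. The *Sox4* window above overlaps this gene, since RefSeq places the start further downstream. Its CCAAT box 8 to 4 bases before the RefSeq start lies inside the gene as annotated here. *Prrx1* lies at chr1:163245119-163313710, *Twist1* at chr12:33957671-33959829, *Snai1* at chr2:167538195-167542814, *Snai2* at chr16:14705852-14709385, *Zeb2* at chr2:44983632-45117395 and *Vim* at chr2:13573927-13582826. *Zeb1* (chr18:5591860-5775467) and *Cdh2* (chr18:16588877-16809246) share a chromosome. Exons of *Sox4*, *Hmga2*, *Zeb1* and *Zeb2* overlap annotated transcripts on the opposite strand, and since the strand used in counting is not given in the sources used here, reads of the 2 cannot be told apart. Over the 45 YUMM2.1 libraries those partners had 16 counts beside 2872 for *Sox4*, 12 beside 5132 for *Hmga2* and 74 beside 515 for *Zeb1*. Beside 2110 for *Zeb2* there were 36 for *Zeb2os* and 0 for *Gm27761*. In CT26 the partners had 2 beside 405 for *Sox4*, 3 beside 1359 for *Hmga2* and 21 beside 564 for *Zeb1*. Beside 413 for *Zeb2* there were 15 and 0.

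The first comparison set cells rechallenged for 2 h after 3 weeks in IFNγ against naive cells that had received IFNγ for the same 2 h, and asks whether the history of exposure alters the early state of these genes. In YUMM2.1, *Sox4* stood at 74.0, 141 and 51.9 CPM in the 3-week cells and at 18.7, 35.8 and 23.7 CPM in the naive cells. All 3 rechallenged libraries were above all 3 naive ones, with replicate 2 the highest in each group. In bulk RNA, more cells expressing a gene and more RNA of it per cell cannot be told apart. The difference was 1.81 on the log2 scale (SE 0.30, edgeR quasi-likelihood test, adjusted p = 4.75e-05, n = 3 per group). Without replicate 2 of the 3-week cells it was 1.284 (adjusted p = 0.0102), and it stayed past the threshold in all 15 alternatives run, with log2 differences between 1.284 and 2.081.

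In CT26, *Sox4* was expressed far lower, with 14.4, 14.4 and 21.8 CPM in the 3-week cells (18, 13 and 17 counts) and 0, 3.69 and 5.34 CPM in the naive cells (0, 5 and 8 counts). The groups again did not overlap, and the lowest naive library held no count of the gene. The log2 difference was 2.45 (SE 0.61, adjusted p = 0.0064). Leaving out naive replicate 1, the library at 0, gave 1.86 (adjusted p = 0.0632), and leaving out naive replicate 3 gave 3.197 (adjusted p = 0.00612), so the size of the difference rests on few counts. It missed the threshold in 2 of the 15 alternatives run, with adjusted p up to 0.094.

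*Hmga2* was at 79.0, 163 and 78.6 CPM in the 3-week YUMM2.1 cells and at 59.1, 60.7 and 40.1 CPM in the naive cells. Replicate 2 of the rechallenged cells stood apart from the other two, which lay closer to the highest naive library than to it. The log2 difference was 1.00 (SE 0.26, adjusted p = 0.0139). It fell to 0.53 without replicate 2 of the 3-week cells (adjusted p = 0.394) and to 0.84 without replicate 3 of the naive cells (adjusted p = 0.104), and missed the threshold in both cases. In all it missed the threshold in 4 of the 15 alternatives run.

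In CT26 the *Hmga2* levels were even across replicates, at 40.9, 43.3 and 43.6 CPM in the 3-week cells and 16.8, 21.4 and 18.7 CPM in the naive cells. Every rechallenged library was above every naive one. The log2 difference was 1.16 (SE 0.38, adjusted p = 0.0415), and leaving out any single library of the 6 kept it between 1.10 and 1.26 while moving the adjusted p to between 0.0663 and 0.148. In all it missed the threshold in 9 of the 15 alternatives run, with adjusted p up to 0.290. Of all tested genes, 8.1% passed the test in this comparison in YUMM2.1 and 10.3% in CT26, against 2 of the 9 tested members in each line. Of the genes called, 61.9% were higher in YUMM2.1 and 41.7% in CT26, and with scaling by library totals 81.8% and 75.2%. In the 15-group fits the median log2 difference over all genes was 0.04 in both lines.

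**Figure D1:**
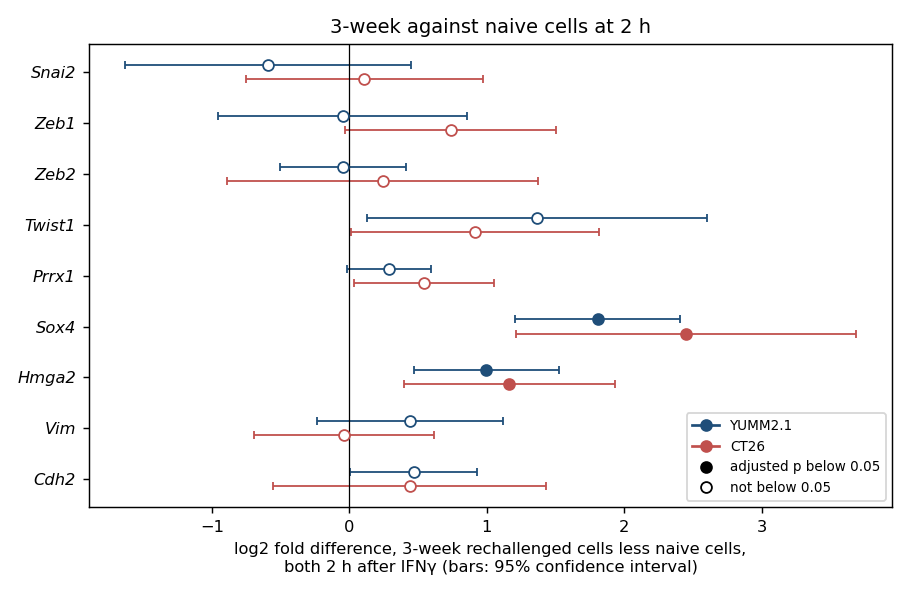
Log2 difference between 3-week cells 2 h after rechallenge and naive cells 2 h after IFNγ for the 9 tested members, with YUMM2.1 and CT26 side by side. Points are the fitted differences, bars are 95% confidence intervals and filled points passed the test at an adjusted p under 0.05. *Sox4* and *Hmga2* are the filled points in both lines, and the intervals of *Twist1* and *Cdh2* in YUMM2.1 and of *Prrx1* and *Twist1* in CT26 lie just above 0 without passing the adjusted test.

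The same contrast was made at 24 h. *Sox4* was at 37.9, 41.8 and 66.2 CPM in the 3-week YUMM2.1 cells and at 37.1, 41.0 and 47.9 CPM in naive cells, and the ranges overlapped. The log2 difference was 0.20 (95% confidence interval −0.40 to 0.81) in YUMM2.1 and 0.44 (−0.99 to 1.88) in CT26. That of *Hmga2* was 0.04 (−0.49 to 0.58) in YUMM2.1 and 0.19 (−0.69 to 1.08) in CT26. No member passed the test at 24 h, where 0.813% of all genes did in YUMM2.1 and 2.48% in CT26. Whether the 2 h and 24 h differences differ from each other was not tested.

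The levels before and after rechallenge show how the 2 h difference was made up. In YUMM2.1, *Sox4* lay between 23.2 and 36.6 CPM in the 12 control libraries and at 47.7, 59.1 and 45.6 CPM after 3 weeks of continuous IFNγ without rechallenge. The 3 continuous libraries were above all 12 controls, but the difference from the same-week controls (35.5, 28.8 and 26.9 CPM) was 0.77 on the log2 scale with an adjusted p of 0.330. The step from continuous IFNγ to 2 h after rechallenge at 3 weeks was 0.79 (adjusted p = 0.262), so neither step passed the test by itself. The naive 2 h response of *Sox4*, 18.7, 35.8 and 23.7 CPM against 36.6, 25.6 and 30.9 CPM at week 0, was −0.32 (adjusted p = 1). The rechallenge response at 3 weeks exceeded the naive response by 1.11 (SE 0.45), which did not pass the test of that difference over all genes (adjusted p = 0.659).

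The levels of the earlier weeks overlapped in part in YUMM2.1, and differences between weeks were not tested. At 2 h after rechallenge, *Sox4* was at 60.7, 93.6 and 39.7 CPM at 1 week and at 31.3, 41.4 and 25.01 CPM at 2 weeks, compared with 74.0, 141 and 51.9 CPM at 3 weeks. Of the 2-week libraries 1 lay above the control range, while all of those at 1 and 3 weeks did. In comparisons added after these levels had been seen, the rechallenged cells were above the same-week controls by 1.34 at 1 week (adjusted p = 0.00237) and by 1.56 at 3 weeks (adjusted p = 0.000121), and the 2-week difference of 0.19 did not pass. The share of all genes that passed was 5.27% at 1 week, 1.8% at 2 weeks and 10.7% at 3 weeks. Against naive cells at 2 h the 1-week cells were higher by 1.39 (adjusted p = 0.00557, with 1.8% of all genes passing). Without replicate 2 of the 1-week rechallenged cells these 1-week differences were 0.99 (adjusted p = 0.131) and 1.01 (adjusted p = 0.230), and without naive replicate 1 the second was 1.14 (adjusted p = 0.119).

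In CT26 the 3 highest *Sox4* libraries were all at 2 h after rechallenge, 1 in each week, though counts were low throughout (405 counts over 45 libraries). It was at 4.22, 21.8 and 10.95 CPM at 1 week, 7.08, 17.9 and 12.3 CPM at 2 weeks and 14.4, 14.4 and 21.8 CPM at 3 weeks, against 2.95 to 8.77 CPM in the 12 controls. At 1 and 2 weeks the lowest rechallenged library fell inside the control range, and at 3 weeks all were above it. Averaged over the 3 weeks, in a comparison added after the data were seen, the 2 h rechallenge response was 1.25 (SE 0.36, adjusted p = 0.0804, with 0.986% of all genes passing), and in YUMM2.1 it was 0.52 (SE 0.18, adjusted p = 0.110, with 2.82% passing).

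*Hmga2* in CT26 was at 35.2, 36.3 and 26.1 CPM 2 h after rechallenge at 1 week, 31.4, 45.03 and 25.3 CPM at 2 weeks and 40.9, 43.3 and 43.6 CPM at 3 weeks, while the 12 controls spanned 10.3 to 26.7 CPM. In the added comparisons with same-week controls it was higher by 1.37 at 2 weeks (adjusted p = 0.0443, with 4.23% of all genes passing) and by 1.17 at 3 weeks (adjusted p = 0.0459, with 8.29% passing). Both calls were lost on leaving out most single libraries, with adjusted p up to 0.249 at 2 weeks (without replicate 2 of the rechallenged cells) and 0.227 at 3 weeks (without replicate 3 of the controls). In YUMM2.1, *Hmga2* was at 77.3, 114 and 58.9 CPM at 1 week and 42.3, 72.5 and 53.7 CPM at 2 weeks, a range that overlapped the controls of 58.9 to 81.9 CPM. Over the 15 group means the log2 levels of *Hmga2* and *Sox4* correlated with r = 0.80 in YUMM2.1 and r = 0.81 in CT26, as a description, since the groups of a line share one scaling and one culture history.

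**Figure D2:**
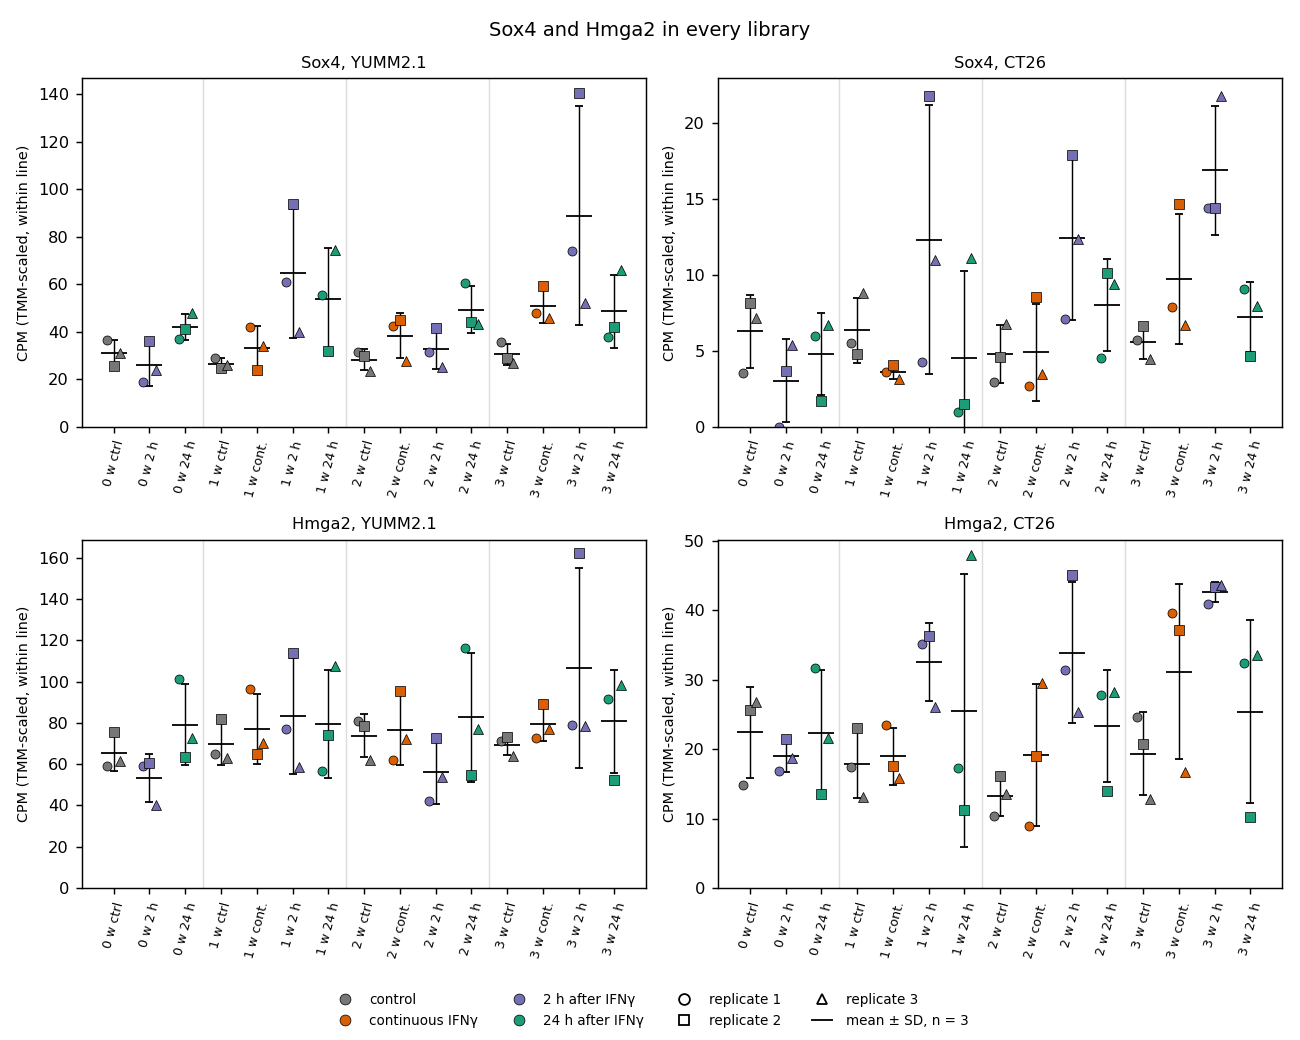
CPM of *Sox4* and *Hmga2* in each library of the 15 groups of YUMM2.1 and of CT26, with marker shapes for replicate numbers and lines for the mean ± SD (n = 3). The 2 highest *Sox4* libraries of YUMM2.1, at 141 and 93.6 CPM, are replicate 2 of the groups 2 h after rechallenge at 3 weeks and 1 week. In CT26 the 3-week group at 2 h lies at 14.4 to 21.8 CPM for *Sox4* and 40.9 to 43.6 CPM for *Hmga2*.

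The paired homeobox gene *Prrx1* was the only member called between continuous IFNγ and same-week controls, in CT26 at 3 weeks. It was at 19.3, 38.3 and 16.7 CPM in the treated cultures and at 12.3, 13.3 and 15.7 CPM in the controls. The groups did not overlap, but replicate 2 of the treated cultures was well above the others. The same library held *Vim* at 1261 CPM where its group mates held 491 and 468 CPM, and the part of this in the *Prrx1* result was not tested. The log2 difference was 0.90 (SE 0.26, adjusted p = 0.0269), in a comparison where 7.23% of all genes passed, 47.6% of them higher (79.3% when scaled by library totals). Without the filter on low counts the adjusted p was 0.203. Without replicate 2 of the treated cultures it was 0.40 (adjusted p = 0.646), without control replicate 1 or 2 the adjusted p was 0.0936 or 0.0752, and DESeq2 gave an adjusted p of 0.0548. In YUMM2.1 the same difference was 0.31 (adjusted p = 0.491), with 99.0, 103 and 123 CPM in the treated cultures and 82.5, 91.6 and 80.7 CPM in the controls, groups that did not overlap either. There 0.97% of all genes passed.

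*Twist1*, low in YUMM2.1 (256 counts over 45 libraries), was at 7.05, 10.4 and 5.77 CPM in the 3-week cells at 2 h and at 1.33, 3.66 and 4.45 CPM in naive cells. The groups did not overlap, and the log2 difference of 1.37 (95% confidence interval 0.13 to 2.60) had an adjusted p of 0.157. In CT26 the 3-week cells at 2 h were at 16.0, 26.7 and 10.3 CPM and the same-week controls at 4.91, 5.91 and 4.91 CPM. This added comparison gave 1.75 (SE 0.48, adjusted p = 0.0178), and without replicate 2 of the rechallenged cells 1.37 (adjusted p = 0.213). The call was also lost without control replicate 1 (adjusted p = 0.0545) or control replicate 3 (adjusted p = 0.0809). Against naive cells at 2 h (7.74, 14.03 and 6.68 CPM) the CT26 difference was 0.91 (adjusted p = 0.205).

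*Snai1*, the repressor that usually acts earliest in EMT, was close to absent in YUMM2.1, with 11 counts among 69880769 and 7 of 45 libraries holding any. In CT26 it had 128 counts among 56549425, spread over 36 of 45 libraries, with at most 9 in one library. Pooled over the 3 libraries of a group, CT26 cells 2 h after rechallenge held 19 counts at 1 week, which is 5.27 CPM (95% exact Poisson interval 3.17 to 8.23, counting error only), and 24 counts at 2 weeks, which is 4.401 CPM (2.82 to 6.55). The continuous cultures of the same weeks were at 0.80 CPM (2 counts, 0.0969 to 2.89) and 2.02 CPM (8 counts, 0.87 to 3.97), and the controls at 1.82 CPM (9 counts) and 1.14 CPM (4 counts). At 3 weeks the 2 h level of 3.27 CPM (9 counts) lay beside 3.72 CPM (8 counts) before rechallenge. With the filter on low counts left out, the step from continuous IFNγ to 2 h after rechallenge in CT26 was 2.51 (SE 1.01, adjusted p = 0.733) at 1 week and 1.17 (SE 0.74, adjusted p = 1) at 2 weeks, and against naive cells at 2 h the differences were 1.59 (adjusted p = 0.740) and 1.47 (adjusted p = 0.952). None of these passed the test in the fit without the filter. In the 9 YUMM2.1 groups with no count the limit set by 3 counts of the pooled total was 0.372 to 1.05 CPM.

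*Snai2* and *Zeb1* were low in both lines, with 367 and 515 counts over the 45 YUMM2.1 libraries and 456 and 564 over those of CT26. In the 3-week cells at 2 h, *Snai2* was at 4.94, 5.83 and 5.05 CPM in YUMM2.1 against 10.2, 5.85 and 7.42 CPM in naive cells, a difference of −0.59 (95% confidence interval −1.63 to 0.45). *Zeb1* was at 7.05, 6.48 and 3.61 CPM against 4.89, 6.58 and 6.68 CPM, a difference of −0.05 (−0.95 to 0.85). In CT26 the differences were 0.11 (−0.75 to 0.97) for *Snai2* and 0.74 (−0.03 to 1.51) for *Zeb1*. Changes inside these intervals were not detectable at this depth. *Zeb2* was better counted in YUMM2.1 (2110 counts), and there stood at 26.8, 36.9 and 30.3 CPM in the 3-week cells and 37.4, 29.3 and 29.7 CPM in naive cells at 2 h, which overlapped, with a difference of −0.05 (−0.50 to 0.41).

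*Vim* had the most counts of the set, 84026 in YUMM2.1 and 31875 in CT26, and passed no test within either line in the filtered fit. Its spread came from single libraries. Replicate 2 of continuous IFNγ at 1 week and 3 weeks was far above its group mates in both lines: 1106, 3303 and 992 CPM at 1 week and 1205, 3871 and 1090.0 CPM at 3 weeks in YUMM2.1, and 573, 1778 and 604 CPM at 1 week and 491, 1261 and 468 CPM at 3 weeks in CT26. The 12 controls of YUMM2.1 lay between 899.7 and 1201 CPM and those of CT26 between 368 and 745 CPM. With these libraries included, the 3-week difference from same-week controls was 0.88 in YUMM2.1 (adjusted p = 0.290) and 0.87 in CT26 (adjusted p = 0.1001). With the filter on low counts left out it was 0.83 in both (adjusted p = 2.63e-08 in YUMM2.1 and 5.84e-08 in CT26), and the 1-week differences of 0.80 and 0.88 passed too (adjusted p = 1.35e-07 and 8.42e-09). In that fit the SE of *Vim* was 0.13 for each of these differences. It was 0.13 too between the CT26 controls of 3 weeks and week 0, which held no such library. The groups of a line share an estimate of the spread, so equal SE values cannot decide whether the p-values follow it. The 3-week differences were of like size in the filtered fit and did not pass there. The p-values without the filter are therefore not read as a measure of the spread between the libraries of a group, which replicate 2 set here. The 2-week continuous cultures had no such library, with 967, 1162 and 829 CPM in YUMM2.1 and 348, 428 and 503 CPM in CT26.

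**Figure D3:**
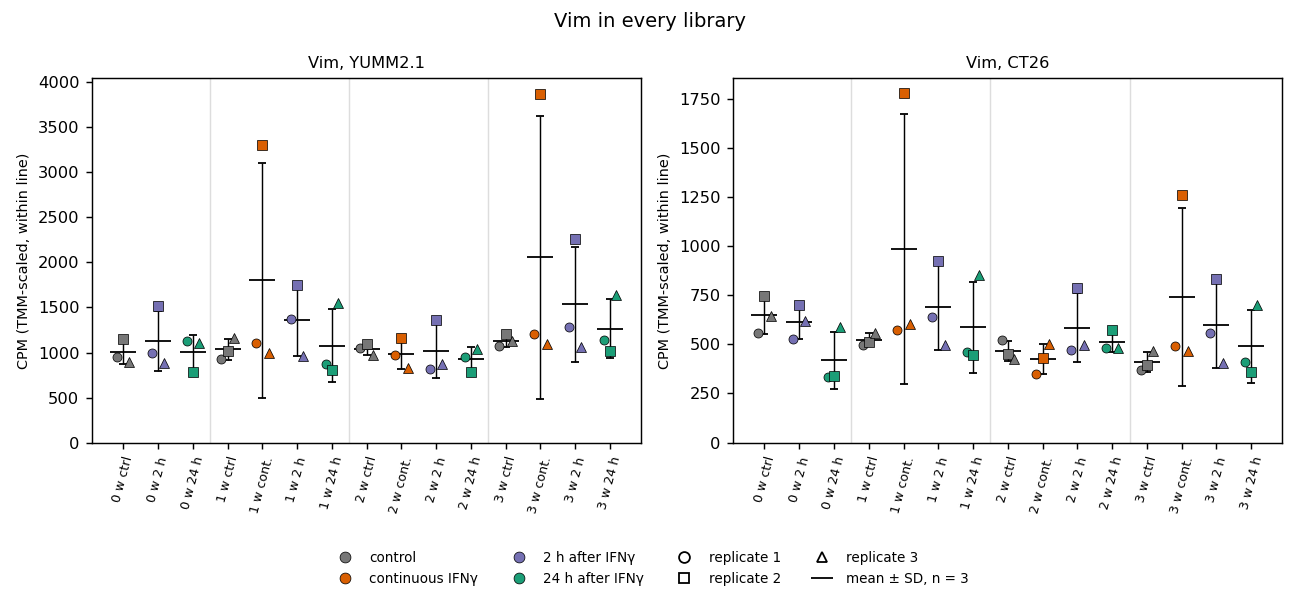
*Vim* CPM per library over the 15 groups of each line, with marker shapes for replicate numbers and lines for the mean ± SD (n = 3). One library, replicate 2, stands above the rest in the continuous IFNγ groups at 1 and 3 weeks of both lines, at 3303 and 3871 CPM in YUMM2.1 and 1778 and 1261 CPM in CT26.

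*Cdh2* was at 62.8, 90.04 and 49.0 CPM in the 3-week YUMM2.1 cells at 2 h and at 43.1, 58.5 and 46.0 CPM in naive cells, which overlapped, with a log2 difference of 0.47 (SE 0.23, adjusted p = 0.199). In CT26 it was 0.44 (SE 0.49, adjusted p = 0.642). Over the 15 group means in YUMM2.1 the log2 level of *Cdh2* correlated with that of *Sox4* with r = 0.74, and in CT26 with r = 0.54.

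By kind of comparison, the count of members called was 0 in the naive responses of both lines. In YUMM2.1, 2 of 18 tests had an unadjusted p under 0.05 and DESeq2 called 0, and in CT26 both counts were 0 of 18. All genes were called at 0.24% at 2 h and 0.886% at 24 h in YUMM2.1, and at 0.235% and 2.04% in CT26. Continuous IFNγ gave 0 of 27 calls in YUMM2.1 (5 at an unadjusted p under 0.05, 0 by DESeq2), where 0.73%, 1.12% and 0.97% of all genes passed at 1, 2 and 3 weeks, and the 1 *Prrx1* call in CT26, where 0.728%, 1.67% and 7.23% passed.

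The rechallenge steps against continuous IFNγ gave 0 of 54 calls in each line (7 in YUMM2.1 and 5 in CT26 at an unadjusted p under 0.05, 0 by DESeq2). At 2 h, 0.615%, 0.428% and 1.08% of all genes passed at 1, 2 and 3 weeks in YUMM2.1 and 0.376%, 0.305% and 0.0117% in CT26. At 24 h YUMM2.1 had shares of 1.42%, 0.615% and 0%, while CT26 had 1.32%, 0.658% and 0%. No member differed by the adjusted test between the controls of 1 to 3 weeks and those of week 0 (1 of 27 at an unadjusted p under 0.05 in each line, 0 by DESeq2), with 0.073%, 0.0209% and 0.521% of all genes called in YUMM2.1 and 0.0117%, 0.247% and 0.916% in CT26.

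The differences of the rechallenge response from the naive response gave 0 of 54 calls in each line (9 in YUMM2.1 and 3 in CT26 at an unadjusted p under 0.05, 0 by DESeq2). Of all genes, 0.146%, 0.125% and 0.115% passed for the 2 h responses of 1, 2 and 3 weeks in YUMM2.1 and 0.106%, 0.0822% and 0.211% in CT26. The 24 h responses gave shares of 0.323%, 0.48% and 0.615% for YUMM2.1, while those for CT26 were 0.693%, 0.928% and 1.2%.

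In the comparisons added after the data were seen, 2 h after rechallenge against same-week controls gave 2 of 27 calls in YUMM2.1 (*Sox4* at 1 and 3 weeks) and 3 of 27 in CT26 (*Hmga2* at 2 and 3 weeks and *Twist1* at 3 weeks). The share of all genes called in CT26 was 3.63% at 1 week. The 1-week and 2-week cells against naive cells at 2 h gave 1 of 18 calls in YUMM2.1, that of *Sox4* at 1 week, with 2.15% of all genes called at 2 weeks. In CT26 they gave 0 of 18 (4 at an unadjusted p under 0.05, 0 by DESeq2), with 1.61% of all genes called at 1 week and 2.09% at 2 weeks. The rechallenge responses averaged over weeks gave 0 of 18 calls in each line (4 in YUMM2.1 and 3 in CT26 at an unadjusted p under 0.05, 0 by DESeq2), with 1.06% of all genes called at 24 h in YUMM2.1 and 1.34% in CT26.

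**Figure D4:**
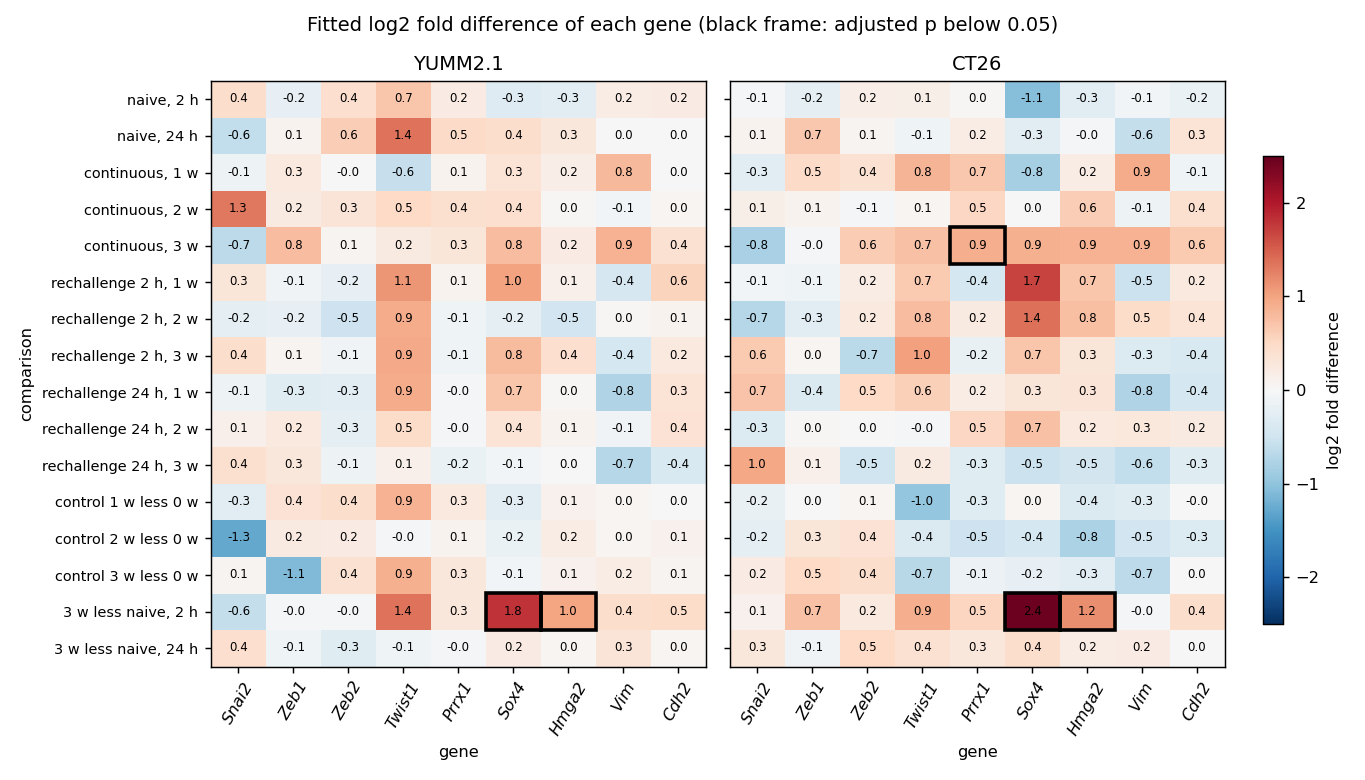
Log2 differences of the 9 tested members in 16 comparisons per line, as a heat map in which colour gives the size and sign and a black frame marks an adjusted p under 0.05. The frames lie on *Sox4* and *Hmga2* in 3-week against naive cells at 2 h in both lines, and on *Prrx1* after 3 weeks of continuous IFNγ in CT26.

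Further genes of the same programmes were taken from 3 lists: other EMT and stemness regulators, mesenchymal effector genes and epithelial genes. In 3-week against naive cells at 2 h in YUMM2.1, 1 of 18 tested regulators was higher and none lower, beside 5.02% of all genes higher and 3.09% lower, a share near the background. The 1 was *Fosl1*, an AP-1 subunit, at 45.1, 64.1 and 57.0 CPM against 32.0, 27.8 and 15.6 CPM (log2 difference 1.11, adjusted p = 0.00259). Of 24 tested effectors, 7 were higher and 1 lower, with a list median of 0.42 beside 0.04 over all genes. Among the higher were *Ccn1*, a matricellular protein gene (62.1, 58.3 and 68.5 against 33.4, 38.8 and 27.5 CPM), *Mmp14*, a membrane metalloprotease gene (109, 139 and 115 against 81.4, 61.4 and 77.9 CPM), and *Itga5*, a fibronectin receptor gene (13.4, 12.3 and 6.49 against 1.33, 2.19 and 2.97 CPM). The 1 lower was the fibronectin gene *Fn1* (−0.43, adjusted p = 0.0199), which was lower in CT26 too (−0.31, adjusted p = 0.0343). In YUMM2.1, *Fn1* was also lower in the controls of 3 weeks than in those of week 0 (−0.87, adjusted p = 8.47e-06). Against same-week controls, in an added comparison, the same rechallenged YUMM2.1 cells were higher in *Fn1* (0.37, adjusted p = 0.0410). Scaled by library totals, 9 effectors were higher and 0 lower in YUMM2.1. None of the 3 epithelial genes tested in YUMM2.1 passed. The 8 effector calls kept their sign wherever the gene was tested under the other scalings, with the replicate block and without each replicate number, but 1 of the 8 still passed without replicate 1 and 2 without replicate 2. *Fosl1* did not pass without replicate 2.

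In CT26, where 4.29% of all genes were higher and 6% lower in the same comparison, 1 of 20 tested regulators was higher, again near the background. It was *Id2*, an inhibitor of helix-loop-helix factors, at 166, 112 and 118 CPM against 76.8, 60.5 and 66.1 CPM (0.97, adjusted p = 0.000257), with a list median of 0.50. *Id2* was also higher in the CT26 controls of 3 weeks than in those of week 0 (1.22, adjusted p = 3.78e-05). It was not called in the same rechallenged cells against their same-week controls. The effectors were split, with 4 of 19 higher and 5 lower and a median of 0.15. *Ccn1* (1.27) and the hyaluronan receptor gene *Cd44* (0.83) were higher, and the lysyl oxidase gene *Loxl2* (−0.51) and the matrix protein gene *Sparc* (−0.71) were lower, all with groups that did not overlap. Scaled by library totals, 5 effectors were higher and 1 lower, and *Sparc* no longer passed (−0.53, adjusted p = 0.0794). Of the 9 effector calls, 1 remained without replicate 1, 3 without replicate 2 and 5 without replicate 3. The keratin gene *Krt20* was the 1 of 5 tested epithelial genes that passed, at 114, 97.7 and 106 CPM against 49.05, 42.1 and 52.1 CPM. After 3 weeks of continuous IFNγ, 1 effector was higher (*Cd44*, 0.72) and 4 were lower in CT26, among them *S100a4* (−0.86), *Sparc* (−1.10) and *Loxl2* (−0.51), beside 3.44% of all genes higher and 3.79% lower. Scaled by library totals 1 was higher and 3 were lower, and 1 to 3 of the 5 calls remained on leaving out a replicate number. In YUMM2.1 *S100a6* (−0.57) was lower and no other effector passed, beside 0.72% of all genes higher and 0.25% lower, and it did not pass without any 1 of the replicate numbers. No regulator or epithelial gene passed there in either line.

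The control cultures of the lines also differed in these genes. In the 12 control libraries of each line, on 1 scale over both, *Hmga2* had a median of 64.7 CPM in YUMM2.1 (56.4 to 78.0) and 17.8 CPM in CT26 (11.1 to 28.9). *Sox4* had a median of 27.5 CPM (21.8 to 35.0) against 5.94 CPM (3.17 to 9.46). These ranges did not overlap, and the share of all genes without overlap was not counted. The log2 differences were 1.80 (SE 0.17, adjusted p = 1.39e-15) for *Hmga2* and 2.16 (SE 0.22, adjusted p = 4.83e-14) for *Sox4*.

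Among the 9 tested members *Prrx1* showed the largest difference, 2.38 (SE 0.10), with medians of 76.4 and 13.7 CPM. *Cdh2* (40.8 against 10.4 CPM, log2 difference 2.13), *Zeb2* (28.4 against 6.91 CPM, 1.99) and *Vim* (1005 against 541 CPM, 0.88) were also higher in every one of the 12 YUMM2.1 libraries than in any of CT26. The other 3 tested factors were higher in CT26 with overlapping ranges: *Twist1* (2.30 against 5.66 CPM, −1.40), *Snai2* (4.86 against 8.93 CPM, −1.08) and *Zeb1* (6.45 against 9.86 CPM, −0.78). *Snai1* had 2 counts in the YUMM2.1 controls and 27 in those of CT26, and with the filter on low counts left out its difference was −3.83 (SE 0.73, adjusted p = 1.34e-06), larger in size than the 2.27 of *Prrx1* in that fit. This p-value rests on few counts, and p-values of fits without the filter are not read as a measure of the spread between libraries. All 9 tested members passed the test, where 69% of all genes did, so that the share says little about the set, and the median over all genes was 0.20. With week 0 controls alone *Snai2*, *Zeb1* and *Vim* no longer passed (−0.77, −0.45 and 0.44, adjusted p = 0.164, 0.360 and 0.321).

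**Figure D5:**
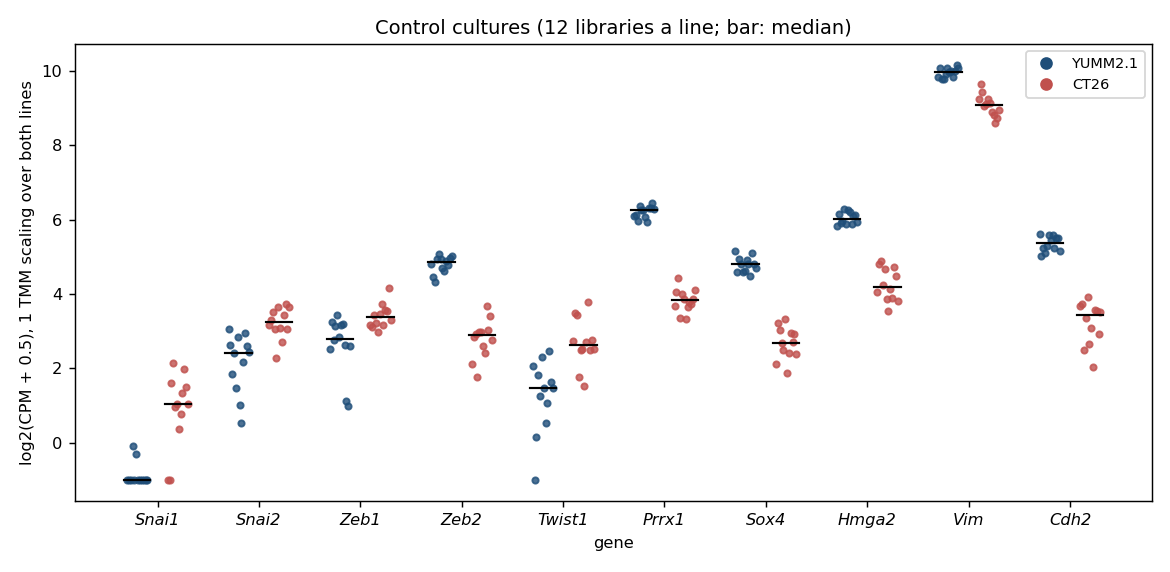
Levels of the 10 members in the 12 control libraries of each line, on a log2 CPM axis with 1 scaling over both lines, with bars at the medians. *Hmga2*, *Sox4*, *Prrx1*, *Zeb2*, *Vim* and *Cdh2* lie higher in YUMM2.1 with no overlap, and *Snai2*, *Zeb1* and *Twist1* lie lower with overlap. The share of all genes without overlap was not counted.

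The same lists differed between the control cultures of the lines, where 69% of all genes passed. Of 23 tested regulators 11 were higher in YUMM2.1 and 8 in CT26 (12 and 6 when scaled by library totals). *Prrx2*, the paralogue of *Prrx1*, had 0 counts in the 12 YUMM2.1 controls and 412 in those of CT26, at least 207-fold higher in CT26 (with 3 counts over the group as the floor), while *Prrx1* itself was higher in YUMM2.1. *Twist2*, the paralogue of *Twist1*, had 9 counts against 201 and went the same way as *Twist1*. Of 26 tested effectors 15 were higher in YUMM2.1, led by *Sparc* (791 against 95.6 CPM, pooled over the 12 libraries) and *Postn* (1321 counts against 0), and 8 in CT26, led by *Fn1*, the fibronectin gene (897 against 121 CPM). Of 7 tested epithelial genes 4 were higher in CT26, among them *Krt20* (908 counts against 6) and *Grhl2* (207 against 53.4 CPM), and 1 in YUMM2.1, *Pkp2* (96 counts against 0).

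The response to IFNγ did not differ between the lines by the adjusted test for any member in the 5 comparisons made (0 of 45 calls, 2 at an unadjusted p under 0.05, 0 by DESeq2), beside 0%, 0.087%, 0.058%, 0.28% and 0.106% of all genes for naive 2 h, naive 24 h and 1, 2 and 3 weeks of continuous IFNγ. *Sox4* 2 h after first IFNγ differed between the lines by 0.76 (95% confidence interval −0.67 to 2.19), an interval that includes 0.

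Genes whose group means followed a called member most closely were looked up over the 15 groups of a line, by Pearson correlation of log2 CPM over all tested genes. For *Sox4* they were *Cab39*, *Pi4k2b* and *Mthfd1l* in YUMM2.1 (r = 0.95, 0.94 and 0.93) and *Ptgs2*, which encodes the inducible cyclooxygenase, *Bcl6b* and *Atp8b2* in CT26 (r = 0.91, 0.86 and 0.85). For *Hmga2* they were *Ptpn23*, *Ppp1r14b* and *Arap3* in YUMM2.1 (r = 0.90, 0.90 and 0.89) and *Errfi1*, a feedback inhibitor of the EGF receptor, *Otud4* and *Ppif* in CT26 (r = 0.95, 0.93 and 0.90). For *Prrx1* in CT26 they were *Klhl9*, *C1s1* and *Kars* (r = 0.91, 0.90 and 0.90). No gene was shared between the lines in these lists of 3, which were picked as the highest of 9588 and 8515 other genes.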

How the data were processed

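RNA of YUMM2.1 and CT26 cells was sequenced by 3′ digital gene expression, in 90 libraries of 30 groups. The values deposited by the authors are whole-number counts per Ensembl gene for each library, without normalization. The submitters' processing notes name Salmon 0.13.1 and the build mm10. The strand setting of the counting is not given in the sources used here. The authors left out 5 samples from their own comparisons without naming them, and all 90 libraries were kept here.

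Of 53697 gene identifiers, 53668 were matched to symbols. For each line, genes were filtered with filterByExpr by group, which left 9589 genes in YUMM2.1 and 8516 in CT26 (10339 in a joint fit of both lines), and scaled by TMM. Counts were fitted with the edgeR quasi-likelihood model (edgeR 4.0.16, R 4.3.3) over the 15 groups of a line, and p-values were adjusted by Benjamini-Hochberg over all genes tested, with calls at an adjusted p under 0.05. All adjusted p-values are from this test unless another is named. CPM values are counts divided by the TMM-scaled library size, and log2 values for correlations used a prior count of 2. Levels of different genes were not compared. Overlap of groups was looked at for named genes only. The share of all genes whose groups did not overlap was not counted, so absence of overlap is a description of the libraries. SE values were taken from the log2 difference and its F statistic. Library totals were 274719 to 3161276, so members at a few CPM rest on few counts, and the Poisson intervals and floors of 3 counts cover counting error only. The edgeR fit within a line was first run on simulated counts, for 3-week against naive cells at 2 h only. It recovered 38.4% of changes of 1 on the log2 scale in YUMM2.1 and 43.8% in CT26. Of changes of 2 it recovered 78.4% and 82.8%, so true changes of these sizes could go uncalled. The other fits were not run on simulated counts.

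The genes and lists were chosen with earlier results of these data known. All 10 members were named whatever their values, and from each list at most 4 called genes per comparison, by smallest adjusted p, and for each called member the 3 genes with the highest correlation of group means. In addition *Epcam*, *Cdh1*, *Vil1* and the other marker genes were named from the marker lists. *Fn1* was also named as the 1 effector lower in 3-week against naive YUMM2.1 cells at 2 h. Comparisons of the mean over weeks, of rechallenged cells with same-week controls and of 1-week and 2-week cells with naive cells were added after the data had been seen. Alternatives were DESeq2 1.42.0 with its size factors, scaling by library totals, no filter, the replicate number as a block, only the compared groups, no library under 25% of the median total, week 0 controls, and each replicate or library left out in turn. For the list counts, both scalings, the block and the replicate numbers left out were run after the data had been seen. Replicate numbers were checked for pairing by the correlation of deviations from group means. Every pair correlated over 0.1 in 1 of 32 comparisons, that of 3-week with naive cells at 2 h in YUMM2.1 (r = 0.107, 0.404 and 0.157). No 2 libraries of the same group agreed within sampling noise, and pairs across groups were not compared. Some genes of the lists are not reported here.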

Additional observations from a re-analysis of the deposited data

How the results depend on the processing

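No called member changed sign under any alternative run. The counts of members called within families of comparisons kept within 1.5 times in 144 cases, rose in 23 and fell in 14. The calls of single members were kept in 193 cases and lost in 54. Without the filter on low counts the number of members called became 2 for continuous IFNγ in YUMM2.1 (both *Vim*, where 0 passed) and 2 in CT26 (both *Vim*, where *Prrx1* alone had passed), 3 for rechallenge in each line, 2 and 1 for the difference from the naive response in YUMM2.1 and CT26, 1 for naive IFNγ in CT26, 2 for control drift in CT26, 3 and 2 for the mean over weeks, 4 and 5 for rechallenged cells against same-week controls, and 2 for 1-week and 2-week against naive CT26 cells. With only the compared groups in the fit it was 1 for 3-week against naive YUMM2.1 cells, 0 for continuous IFNγ in CT26, 2 for control drift in CT26 and 6 for CT26 cells against same-week controls. With week 0 controls it was 1 for continuous IFNγ in YUMM2.1 and 0 in CT26, where DESeq2 also gave 0 and leaving out libraries of low total gave 2. All genes called moved too. After 3 weeks of continuous IFNγ, leaving out the filter took them from 93 of 9589 to 186 of 27231 in YUMM2.1. In CT26 it took them from 616 of 8516 to 727 of 24691. With only the compared groups, 2 h rechallenge at 3 weeks against controls went from 706 of 8516 to 582 of 6368 in CT26. The counts of members are thus no result about the set. The p-values of the fits without the filter carry the limit given above for *Vim*, also for the other members called in them.

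Leaving out 1 replicate number gave 1 to 2 calls for 3-week against naive YUMM2.1 cells and 0 to 1 in CT26, 0 to 2 for continuous IFNγ in CT26, 0 to 2 for the mean over weeks in each line, 1 to 5 and 0 to 2 for same-week controls in YUMM2.1 and CT26, and 0 to 1 for 1-week and 2-week against naive YUMM2.1 cells. In 3-week against naive YUMM2.1 cells, 111 of 9613, 179 of 9926 and 666 of 9517 genes were called without replicates 1, 2 and 3. In CT26 the counts were 210 of 8542, 325 of 8527 and 785 of 8364. The cause of these changes was not tested, beyond the fewer samples in these fits. With the replicate block, paired by number only in 3-week against naive YUMM2.1 cells, *Sox4* there was 1.79 (adjusted p = 6.83e-05) and *Hmga2* 0.98 (adjusted p = 0.0157). Elsewhere the block gave 5 calls for CT26 cells against same-week controls and 1 for 1-week and 2-week against naive CT26 cells, and left every other count within 1.5 times. By number, 20 of 45 YUMM2.1 and 23 of 45 CT26 libraries correlated best with their own number.

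Scaling by library totals moved the median of all genes in 3-week against naive cells at 2 h to 0.17 in YUMM2.1 and 0.23 in CT26, and the share of higher among called genes from 61.9% to 81.8% and from 41.7% to 75.2%, so that the called genes of CT26 turned from mostly lower to mostly higher, as they did after 3 weeks of continuous IFNγ in CT26 (47.6% to 79.3%). No called list gene changed sign where it was tested in the alternatives added for the lists. The median between the lines was 0.40 by totals and 0.11 by DESeq2. Single libraries were not left out in turn for the comparison of the lines. The lowest totals over a line were those of *Snai1* (11 and 128 counts) and, in YUMM2.1, *Twist1* (256) and *Snai2* (367).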

Other observations

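The highest library of a group carried the same replicate number more often at some hours than at others. In the 8 groups sampled 2 h after IFNγ, over both lines, *Vim* was highest in replicate 2 in 8, *Hmga2* in 7, *Sox4*, *Twist1* and *Cdh2* in 6 each and *Prrx1* in 5, while *Zeb1* and *Snai2* were so in 2 and 3. In the 8 groups sampled at 24 h, replicate 3 was highest for *Vim* and *Zeb2* in 6 and for *Hmga2*, *Sox4* and *Prrx1* in 5 each. In the 6 continuous IFNγ groups, replicate 2 was highest for *Vim* and *Sox4* in 5 each. These counts were made after the data were seen and were not tested, and what the replicate numbers share is not given in the sources used here.

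*Snai1* in CT26, left out of the tests by its low counts, had its 2 highest pooled levels in the groups 2 h after rechallenge at 1 and 2 weeks, 5.27 and 4.401 CPM, though no difference of these groups passed the test with the filter left out. The level in naive cells at 2 h was 1.49 CPM (7 counts, exact Poisson interval 0.60 to 3.08).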
